A study of Homo sapiens with 24 samples.

Results

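Germinal center (GC) B cells are held in place and moved between zones by receptors that couple to G proteins, and 10 genes of this system were followed in the super-enhancers of a human lymphoma line. They comprised 7 receptors (CXCR4, CXCR5, CCR6, CCR7, S1PR1, S1PR2 and GPR183), 2 G protein alpha subunits (GNA13 and GNAI2) and RGS1, a regulator of G protein signaling. The genes were listed by function, with earlier results of these data known, and every super-enhancer that overlapped the GENCODE version 44 gene body of each, extended by 50 kb on both sides, was taken. Of the 10 genes, 7 had at least 1 such region, and together they had 10 distinct regions out of 2615 in the table.

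The cells were OCI-Ly7, an established line of GC B-cell type diffuse large B-cell lymphoma (GCB-DLBCL). The assay was CUT&RUN on isogenic derivatives of the line: an antibody to a histone mark guides a nuclease, and the DNA it releases is sequenced. The 24 samples formed 12 groups of 2, from 3 marks (H3K27ac, H3K4me1 and H3K4me3) and 4 genotypes. These were WT (clones that went through CRISPR without an edit), C (homozygous knock-in of CREBBP R1446C, which inactivates the acetyltransferase), K (homozygous knockout of KMT2D) and CK (both lesions), and no group received a drug. All values below came from the H3K27ac_WT group, whose replicates had been combined by the authors into 1 signal column. No value therefore has a replicate error, differences between regions could not be tested, and the other 22 samples in 11 groups, with the effects of C, K and CK, were not analysed here.

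H3K27ac marks active enhancers and promoters. ROSE joins neighbouring enhancer peaks, called constituents, across gaps of up to 12500 bp, and a joined region whose summed signal passes a cutoff, here 10617, is termed a super-enhancer. Regions below the cutoff were not analysed here, so a gene without a region may still have H3K27ac nearby. The deposited signal has no stated unit and is used only to compare regions of this table, whose median was 19736 and whose highest value was 170185. Signal per bp is the signal divided by the stitched length, and rank 1 is the highest signal. The labelled cell type was checked against marker genes by the same 50 kb rule: 10 of 12 GC B-cell markers had a region, against 1 of 6 T-cell markers (CD28), 1 of 6 myeloid markers (CSF1R) and 0 of 6 non-blood markers.

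The GC is divided into a dark zone, where B cells proliferate, and a light zone, where they are selected with the help of T cells. CXCR4 draws B cells to the dark zone along its ligand CXCL12, CXCR5 draws them to follicles and the light zone along CXCL13, and CCR7 draws activated B cells to the T-cell zone along CCL19 and CCL21. GPR183, also called EBI2, follows oxysterols to the outer follicle, S1PR1 follows sphingosine-1-phosphate (S1P) out of the tissue, and S1PR2 uses the same lipid to keep cells within the GC. Chemokine receptors, GPR183 and S1PR1 signal largely through alpha-i subunits such as the product of GNAI2, whereas S1PR2 signals through the product of GNA13, and loss-of-function mutations of GNA13 recur in GCB-DLBCL.

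CCR6, CXCR5 and CXCR4 each had a region in the top 10% of the table by signal, with 66538, 59680 and 50462 as the signal of their highest-ranked regions. GPR183 followed with 42067, GNA13 with 26487, S1PR2 with 18226 and RGS1 with 15772. CCR7, S1PR1 and GNAI2 had no region within 50 kb. Among all 19970 protein-coding genes of chromosomes 1 to 22 and X, 30.7% had a region by the same rule, beside 7 of 10 members. The share was 28.9% among the 12922 genes no longer than 47452 bp, which is the length of GNA13, the longest member. A region of the top 10% lay within 50 kb of 3.59% of all genes, beside 3 of 10 members, and 2 or more regions lay within 50 kb of 7.34% of all genes, beside 3 of 10 members (CXCR5, S1PR2 and GPR183). The median distance from gene body to nearest region was 17.3 kb over the 10 members and 182 kb over all genes.

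**Figure D1:**
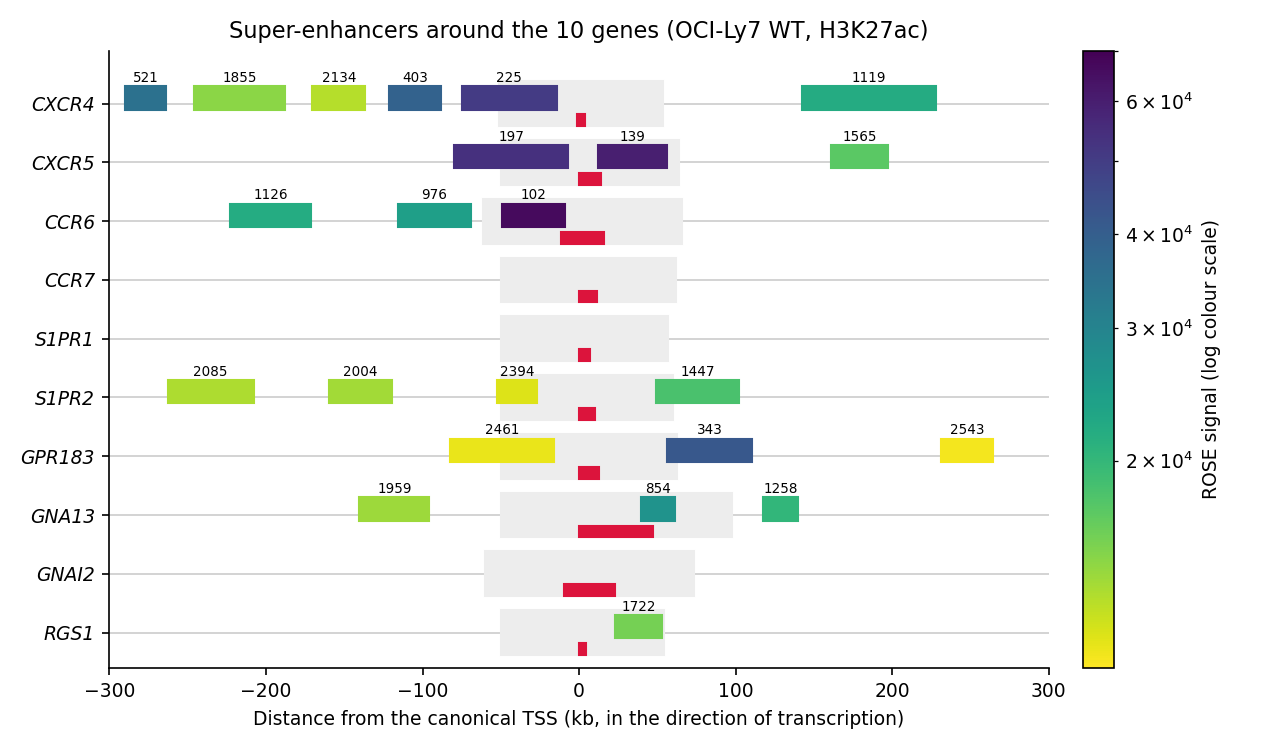
Super-enhancers within 300 kb of the canonical transcription start site (TSS) of each member, with distance in kb on the horizontal axis, positive in the direction of transcription. Red bars are gene bodies, grey boxes are gene bodies extended by 50 kb, and coloured boxes are super-enhancers with their ranks, coloured by signal on a log scale. CXCR4 has a row of 5 regions upstream, CXCR5 is flanked by ranks 197 and 139, and CCR7, S1PR1 and GNAI2 have empty tracks.

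CXCR4 lies on the minus strand of chromosome 2 (hg38, 136114349 to 136119177). Its region within 50 kb, rank 225, spanned chr2:136132537-136193189, began 14.4 kb upstream of the TSS and overlapped no protein-coding gene. It held 19 constituents over 60.7 kb, with a signal of 50462 and 0.832 per bp, above 91.4% of all regions by signal and 91.7% by signal per bp. Beyond it the table listed 4 more regions in the same direction. Rank 403 (signal 38946) began 88.4 kb from the TSS, rank 2134 (13081) at 137 kb, rank 1855 (14700) at 188 kb and rank 521 (34586) at 264 kb. The gaps between the 5 were 13.4, 15.3, 17.5 and 18.3 kb, all above the stitching distance. None of the 5 overlapped a protein-coding gene, and CXCR4 had the nearest protein-coding TSS to all of them. The next protein-coding TSS upstream, of THSD7B, was 647 kb from that of CXCR4. Having the nearest TSS to 5 or more regions was seen for 4 of 19970 protein-coding genes, or 0.0200%. The threshold of 5 was the count of CXCR4 itself, taken after its values were seen, so this share is a description and not a test. It also rests on the stitching distance, since the 5 became 1 region when joined across 20 kb. The signal per bp was uneven along the row, at 0.832, 1.18, 0.388, 0.254 and 1.34 going away from the gene.

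In 7 of the 10 member regions, those of CXCR4, CCR6 and RGS1 among them, the summed length of the constituents was their number times 401 bp, so that the outermost 401 bp could be read as the outermost peak. In the other 3 (ranks 343, 2394 and 2461) it was a larger multiple of 401 bp, and no sequence of these is shown. The middle 201 bp of the peak nearest to CXCR4 (chr2:136132637-136132837, hg38, plus strand) are shown because this is the stretch of the row that lies closest to the gene. In this and the following sequences capitals mark short words fixed for the whole set, on either strand: the ETS core GGAA, the PU.1-type word GAGGAAGT, the octamer ATGCAAAT, the NF-kB word GGGACTTTC, the FOXO word TGTTTAC, the RUNX word TGTGGT and the AP-1 word TGANTCA. The middle of the CXCR4 peak held none of them, and its full 401 bp held 4 ETS cores.
CXCR4 peak: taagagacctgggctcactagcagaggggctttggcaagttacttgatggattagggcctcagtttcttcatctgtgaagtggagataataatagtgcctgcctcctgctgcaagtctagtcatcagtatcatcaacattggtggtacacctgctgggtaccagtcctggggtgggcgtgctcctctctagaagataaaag

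CXCR5 lies on the plus strand of chromosome 11 (118883892 to 118897787) and was flanked by 2 strong regions. Rank 197 (chr11:118804120-118877002) ended 6.89 kb upstream of the canonical TSS, overlapped no protein-coding gene, and held 18 constituents over 72.9 kb with a signal of 54006, or 0.741 per bp. Rank 139 (chr11:118895708-118940385) began 11.8 kb downstream of the TSS, over the end of CXCR5, and continued across UPK2 and BCL9L, a coactivator of beta-catenin whose TSS lay inside it. It held 9 constituents over 44.7 kb with a signal of 59680, or 1.34 per bp. The distances are from the canonical TSS. The promoter that RefSeq lists for CXCR5 (250 bases before its start, chr11:118893142-118893391) lay farther downstream, between the regions and closer to rank 139. The signals of the pair differed by a ratio of 1.11, while the shorter downstream region had 1.80 times the signal per bp of the upstream one. Its GC content of 57.1% was higher than that of 96.5% of regions, whereas the upstream region was at 45.2% against a median of 45.7% over the table. The summed signal of the pair, 113685, was the highest of the 10 members and higher than the sum for 99.5% of all protein-coding genes. Since the downstream region holds the promoter of BCL9L, its signal cannot be assigned to CXCR5 from position alone.

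The peak of rank 197 closest to CXCR5 lies between genes and is shown by its middle 201 bp (chr11:118876702-118876902, hg38, plus strand), with 1 ETS core and 1 RUNX word in capitals.
CXCR5 upstream peak: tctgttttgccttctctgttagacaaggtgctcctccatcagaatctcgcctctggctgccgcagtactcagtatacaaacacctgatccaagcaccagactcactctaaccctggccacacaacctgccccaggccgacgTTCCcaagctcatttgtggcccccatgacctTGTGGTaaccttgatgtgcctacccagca

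CCR6, the receptor for CCL20, had the highest-ranked region of the set. The gene lies on the plus strand of chromosome 6 (167111807 to 167139141). Rank 102 spanned chr6:167073669-167114323, with 8 constituents over 40.7 kb and a signal of 66538. At 1.64, its signal per bp exceeded that of 99.0% of all regions. It overlapped the first part of CCR6, but most of it lay upstream of the CCR6 body. It also overlapped a second annotated protein-coding gene, ENSG00000272980, which rank 976 overlapped as well. Of its bases 97.4% were in introns, mostly through the annotation of that second gene. Rank 102 ended 8.77 kb upstream of the canonical TSS of CCR6. RefSeq lists 3 promoters for the gene, and the outermost of these lay inside the region. The neighbouring rank 976 (signal 24267, over CEP43) was separated from it by a gap of 19.6 kb and lay 69.0 kb from the canonical TSS, outside the 50 kb rule.

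The sequences at CCR6 are shown because start sites of the same gene fall on both sides of the region's edge. The first is the middle of the peak closest to the canonical TSS (chr6:167114023-167114223, hg38, plus strand), in an intron of CCR6. The other two are the 250 bases before the outermost RefSeq start (chr6:167111545-167111794) and before the canonical start (chr6:167122846-167123095), both on the plus strand and from RefSeq on GRCh38.p14. The outermost promoter held the RUNX word, which 13.1% of all 35116 promoters of 300 bases in the table held. The canonical promoter held the octamer, which 1.77% of them held, and it was the single promoter with an octamer among 16 of the members. Both were low in GC, at 35.6% and 41.2%.
CCR6 peak: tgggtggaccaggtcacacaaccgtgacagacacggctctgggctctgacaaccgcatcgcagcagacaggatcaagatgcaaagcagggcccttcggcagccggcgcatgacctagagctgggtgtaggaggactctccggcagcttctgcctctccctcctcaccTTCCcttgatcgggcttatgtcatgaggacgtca
CCR6 outermost promoter: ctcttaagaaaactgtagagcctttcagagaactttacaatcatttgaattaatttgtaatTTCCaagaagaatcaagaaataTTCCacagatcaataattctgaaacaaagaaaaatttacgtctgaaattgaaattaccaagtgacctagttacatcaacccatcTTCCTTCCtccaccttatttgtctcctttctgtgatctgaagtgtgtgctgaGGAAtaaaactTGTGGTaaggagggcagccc
CCR6 canonical promoter: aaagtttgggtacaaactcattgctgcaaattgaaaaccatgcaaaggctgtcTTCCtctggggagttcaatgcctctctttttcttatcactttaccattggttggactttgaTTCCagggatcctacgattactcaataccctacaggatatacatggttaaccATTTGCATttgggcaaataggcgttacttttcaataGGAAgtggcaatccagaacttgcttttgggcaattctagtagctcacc

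CCR7 had no region within 50 kb. The gene lies on the minus strand of chromosome 17 (40553769 to 40565472), and the nearest region was rank 473 at chr17:39782905-39858241, 696 kb from the gene body and within IKZF3, which encodes the lymphoid transcription factor Aiolos. The signal of this region was 36335. Of all protein-coding genes, 24.7% lay farther from their nearest region than CCR7 did.

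Of the 2 S1P receptors among the members, S1PR2 had regions nearby and S1PR1 had none. S1PR1 (chromosome 1, 101236865 to 101243713, plus strand) lay farthest from a region of the 10 genes. Its nearest region, rank 1473 over SLC35A3, ENSG00000283761 and MFSD14A (chr1:100020639-100051316, signal 17971), lay 1186 kb away. The number of regions within 1 Mb was 0, as it was for 4003 of 19970 protein-coding genes, and 17.0% of genes lay farther from a region. S1PR2 (chromosome 19, 10221433 to 10231331, minus strand) had 2 regions within 50 kb, neither adjacent to it. Rank 1447 (chr19:10129001-10182262) began 49.1 kb downstream of the TSS and overlapped DNMT1, the maintenance DNA methyltransferase, with 20 constituents and a signal of 18226, or 0.342 per bp, next to the table's median of 0.343. Rank 2394 (chr19:10258222-10283490) lay 26.9 kb upstream over MRPL4 and ICAM1, with the TSS of the adhesion molecule ICAM1 inside it, and its signal of 11707 was 10.3% above the cutoff. S1PR2 was not the gene with the nearest TSS for either region. Its surroundings were dense in genes, with 22 other protein-coding TSS within 250 kb and 9 regions within 1 Mb of the gene, against a median of 3 regions for all genes. S1PR1 had 1 other TSS within 250 kb.

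GPR183 (chromosome 13, 99294539 to 99307399, minus strand) lay between 2 regions of very different strength, both over UBAC2, within whose span GPR183 itself is located. Rank 343 (chr13:99196934-99251193) held the TSS of UBAC2, began 56.2 kb from the TSS of GPR183 and 43.3 kb from its gene body, and had a signal of 42067 over 10 constituents, or 0.775 per bp. Rank 2461 (chr13:99323107-99389647) began 15.7 kb upstream of GPR183, which had the nearest protein-coding TSS, and its 13 constituents had a signal of 11338, or 0.170 per bp. This was 6.79% above the cutoff, and 4.32% of regions had a lower signal per bp. The far region thus had 3.71 times the signal and 4.55 times the signal per bp of the near one. Each region's signal was also scaled by the share of its length inside the 50 kb window, which assumes an even signal along the region. This gave 11003 for GPR183 in place of 53405 and took the gene from place 3 to place 7 among the members by summed signal. The signal inside the window itself was not measured. The rank 343 region also lay within 50 kb of GPR18.

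Of the G protein subunits, GNA13 had a region and GNAI2 had none. GNA13 (chromosome 17, 65009289 to 65056740, minus strand) had rank 854 at chr17:64995280-65016907, over its 3′ end and the sequence behind it, 39.8 kb from the TSS. With 5 constituents over 21.6 kb it was the shortest member region, and 6.20% of all regions were shorter. Its signal of 26487 exceeded that of 67.3% of regions and its 1.22 per bp that of 96.8%. GNA13 was the only protein-coding gene within 50 kb of it. GNAI2 (chromosome 3, 50226292 to 50259362, plus strand) lay 301 kb from its nearest region, rank 2164 over CAMKV, MST1R and MON1A (chr3:49864775-49924848, signal 12904). Of all protein-coding genes, 40.2% lay farther from a region, so its distance was not unusual.

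RGS1 (chromosome 1, 192575763 to 192580024, plus strand) speeds the shutdown of alpha-i subunits and thereby limits the response to chemokines. Its region, rank 1722 at chr1:192598860-192628619, lay 23.1 kb downstream of the TSS between RGS1 and RGS13, a related regulator expressed in GC B cells, and overlapped neither. The TSS of RGS13 was closer to it, at 7.53 kb. It held 9 constituents over 29.8 kb, with a signal of 15772, below the median, and 0.530 per bp, above 77.0% of regions. Its GC content of 35.5% was among the lowest in the table, with 0.421% of regions lower. It held 7 octamers, or 0.235 per kb, above 99.7% of regions and against a median of 0.0581 per kb, and 8 FOXO words (0.269 per kb, above 97.8%). Both words are rich in A and T, and the region's base composition moves with their number. The part of base composition in the counts was not tested. The octamer and the FOXO word were picked because they stood highest among the words counted in this region. At the low end, the region lacked the PU.1-type word GAGGAAGT, and CACCC was at 1.24 per kb, above 3.21% of regions.

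The peak of rank 1722 closest to RGS1 (chr1:192598960-192599160, hg38, plus strand) is shown for the base composition of the region, with 3 ETS cores and 1 RUNX word in capitals.
RGS1 downstream peak: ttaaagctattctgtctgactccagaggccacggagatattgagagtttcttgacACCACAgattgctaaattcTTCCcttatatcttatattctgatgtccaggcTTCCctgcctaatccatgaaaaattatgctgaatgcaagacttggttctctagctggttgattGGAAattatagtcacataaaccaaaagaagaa

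The 10 regions were high in density rather than in extent. By signal 6 of 10 were above the table's median and by signal per bp 8 of 10 were, whereas 2 of 10 were above the median length of 60.7 kb and 3 of 10 above the median of 16 constituents. In the top 10% of the table there were 4 by signal (ranks 102, 139, 197 and 225) and 5 by signal per bp. The member regions had a median length of 49.0 kb, a median of 9.5 constituents and a median signal per bp of 0.758, against 0.343 over the table. A shorter region can pass the cutoff only with more signal per bp, so length and density are not independent in this table. Signal per bp ran from 0.170 at the upstream region of GPR183 to 1.64 at CCR6. Of the 10 regions, 3 overlapped no protein-coding gene, those of CXCR4, RGS1 and the upstream one of CXCR5, beside 11.6% of all regions. A member had the nearest protein-coding TSS in 5 of 10, and in the other 5 this was BCL9L, EIF3G, ICAM1, UBAC2 or RGS13. No canonical TSS of a member lay inside a region, beside 7.77% of all genes. The study's ROSE run left out peaks next to a TSS, so a TSS is inside a region only where stitching crossed it.

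**Figure D2:**
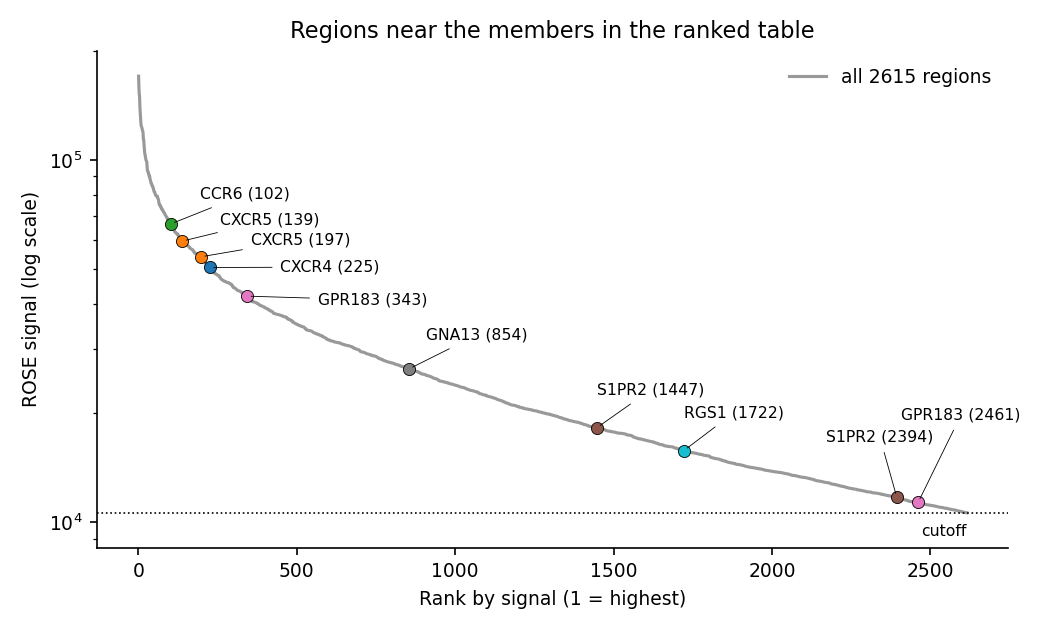
Signal of the 2615 super-enhancers on a log scale against rank (grey line), with the 10 member regions as points labelled by gene and rank and the cutoff of 10617 as a dotted line. The 5 highest member regions, from CCR6 (66538) to the stronger one of GPR183 (42067), sit on the steep left part, and the weaker regions of S1PR2 (11707) and GPR183 (11338) sit just above the cutoff.

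**Figure D3:**
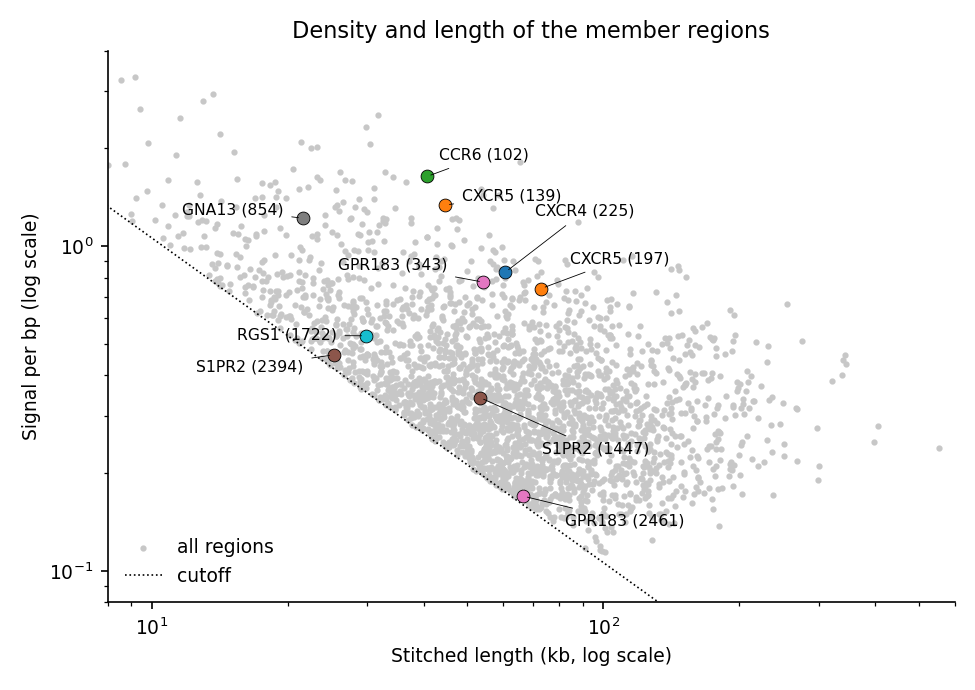
Signal per bp against stitched length for the regions of the table (grey, both axes log) and the 10 member regions (labelled points), with 6 regions outside the axes. The dotted line is the cutoff, below which no region of a given length can appear. CCR6 (1.64 per bp), CXCR5 rank 139 (1.34) and GNA13 (1.22) lie well above the table's median of 0.343, and GPR183 rank 2461 (0.170) lies just above the cutoff line.

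The order of the members depended on what was summed. By summed signal it ran CXCR5 (113685), CCR6 (66538), GPR183 (53405), CXCR4 (50462), S1PR2 (29933), GNA13 (26487) and RGS1 (15772). By the highest signal per bp among a gene's regions, CCR6 (1.64) came before CXCR5 (1.34), GNA13 (1.22) came before CXCR4 (0.832), and S1PR2 came last with 0.463, at its region of lower signal, rank 2394. With no replicate values it was not possible to say which neighbours in these orders differ beyond the error.

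Short sequence words were counted over the whole stitched regions, with the gaps between constituents included, as a description of their DNA. Constituents made up from 7.89% (rank 102) to 15.1% (rank 1447) of the length of the member regions. The counts thus do not describe the DNA of the peaks alone. ETS factors such as PU.1 and SPIB, and the octamer factor Oct-2 with its coactivator, are central to B-cell gene expression. The median of the member regions was near that of the table for the ETS core (9.60 against 9.78 per kb). The same held for the RUNX word (0.794 against 0.819) and CACCC (2.49 against 2.48). The single regions named below were picked from the high and low ends. The regions of CCR6 and CXCR4 were dense in the ETS core, with 541 matches (13.3 per kb, above 99.5% of regions) and 762 matches (12.6 per kb, above 98.7%). CCR6 also held 8 matches of the longer PU.1-type word (0.197 per kb, above 99.4% of regions), of which each contains an ETS core. Other member regions were low, with 7.45 ETS cores per kb at rank 1447 and 7.04 at rank 2394, both near S1PR2, and 7.85 at rank 197 of CXCR5. Rank 1447 had 65 RUNX words (1.22 per kb, above 97.8% of regions). The GC-rich region at CXCR5 and BCL9L held 246 copies of CACCC, a word bound by KLF factors (5.51 per kb, above 97.2% of regions). Among promoters of 300 bases the ETS core was found in all 16 of the members and in 95.5% of all, so its presence there does not set the members apart. A match is a description of letters and was not tested for binding.

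Widening the window showed how close the regions were. With no extension 3 of 10 members (CCR6, CXCR5 and GNA13) overlapped a region, beside 17.3% of all genes. The number was 3 with 10 kb (20.8%), 6 with 25 kb (beside 5002 of 19970 genes), where CXCR4, GPR183 and RGS1 joined, and 7 with 50 kb, where S1PR2 joined. It stayed at 7 with 100 kb (39.7%) and 250 kb (56.0%) and was 8 with 500 kb (69.3%), where GNAI2 joined. Counted from the TSS alone within 50 kb it was 7 (26.0%), with regions of at least 5 constituents 7 (29.8%), and with the midpoint of the region inside the window 7 (23.2%). It was 5 with the upper 50% of regions by signal (16.8%) and 5 where the gene had to have the nearest TSS to the region (13.0%), in both cases CCR6, CXCR4, CXCR5, GNA13 and GPR183.

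**Figure D4:**
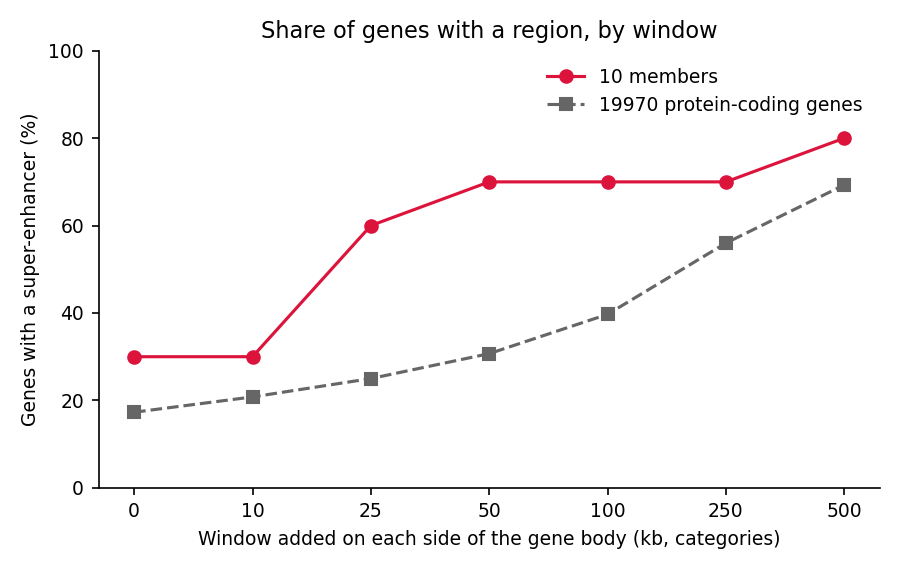
Share of the 10 members (red circles) and of all 19970 protein-coding genes (grey squares) with a super-enhancer, in percent, against the window added on each side of the gene body (0 to 500 kb, spaced as categories). The members go from 3 of 10 to 7 of 10 between 10 and 50 kb, while the share of all genes climbs steadily from 17.3% to 69.3%.

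Around the members, 91 other genes of the same pathways were counted in 10 lists, and 37 of them (40.7%) had a region within 50 kb, beside the 30.7% of all genes. Of the chemokine ligands of the member receptors, CXCL12, CXCL13, CCL19, CCL20 and CCL21, 0 of 5 had a region. These ligands are made mainly by stromal and other cells, and a link of that to the count was not tested. The closest was 241 kb away, at CXCL13. Of 19 other chemokine receptors 7 had a region, 1 of these 7 in the upper 50% of the table and 0 in the top 10%. CX3CR1 overlapped rank 1482 (signal 17870) and CXCR6 overlapped rank 1866 (14607), which also lay within 50 kb of CCR9 and XCR1. Of 12 other genes of the S1P system 4 had a region. Among the remaining S1P receptors, S1PR5 lay 18.5 kb from rank 2085 (signal 13370), whereas S1PR3 and S1PR4 had none within 50 kb, at 316 and 96.1 kb from their nearest. SGPP1, an S1P phosphatase, overlapped rank 235 (signal 49141), which was the single gene of this list with a region in the top 10%. Of the 3 oxysterol enzymes, HSD3B7 had a region at 33.9 kb, rank 2524.

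Counts downstream of the receptors are given beside the 30.7% of all protein-coding genes with a region within 50 kb. Of 10 other alpha subunits 3 had a region, and GNAO1 overlapped rank 2430 (11448). Of 12 other RGS genes 3 had one: RGS13, which shares rank 1722 with RGS1, RGS3 (rank 745) and RGS10, near rank 70 (signal 74489). Rank 70 overlapped GRK5. Of 6 receptor kinases and arrestins, which switch off active receptors, 3 had a region.

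The migration effectors, which turn receptor signals into movement of the cytoskeleton, had the highest count. A region lay within 50 kb of 9 of 11 genes, beside 30.7% of all genes. Each of the 9 overlapped a region with its own body, as 17.3% of all genes did. These were DOCK8, PREX1 (rank 361), WAS (rank 287), CDC42 (rank 557), RAC2 (rank 642), RAC1 (rank 818), DOCK2 (rank 1125), RAP1A (rank 1178) and ELMO1 (rank 1477). For 8 of these the highest-ranked region within 50 kb was in the upper 50% of the table, beside 16.8% of all genes. Among the 8, DOCK8 counted only through a region outside its body. DOCK8 overlapped rank 1876 and lay 43.7 kb from rank 1, the highest signal of all, 170185. Of 3 regulators of member genes, FOXP1 overlapped rank 109 (signal 64674). FOXO1 overlapped rank 1859 and lay 2.90 kb from rank 379 (40047). KLF2, which controls S1PR1, was 54.4 kb from a region. The lists are short and their genes differ in length, and no list was tested against another.

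**Figure D5:**
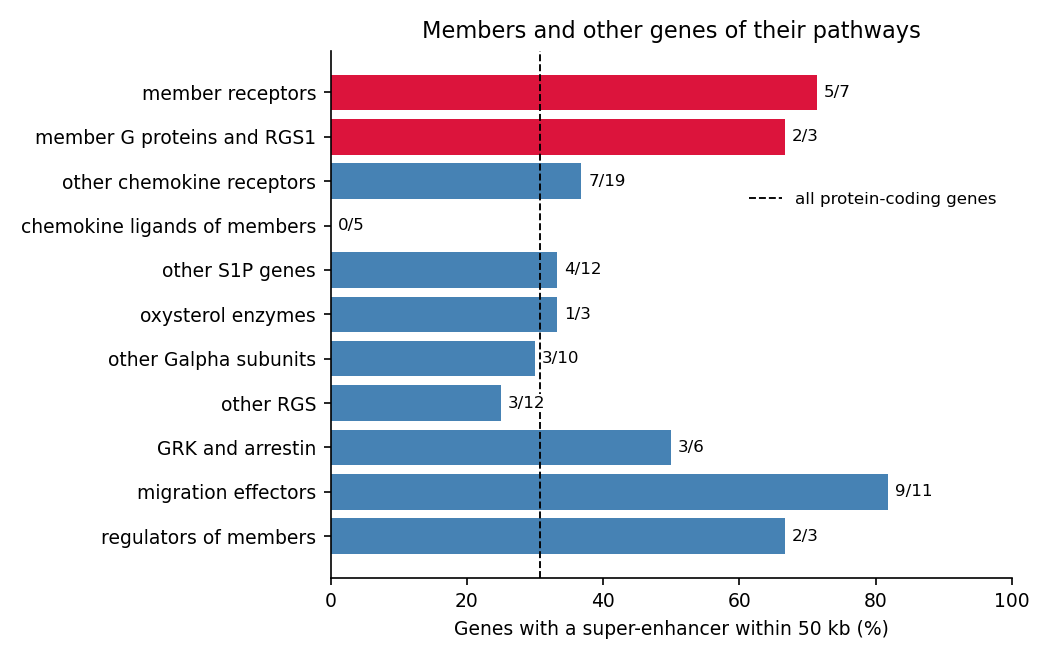
Percent of genes with a super-enhancer within 50 kb for the members (red) and 9 of 10 lists of other genes of their pathways (blue), with the count of genes beside each bar and the 30.7% of all protein-coding genes as a dashed line. The migration effectors (9 of 11) stand highest and the chemokine ligands have 0 of 5.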

How the data were processed

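For the upstream steps, the authors used nf-core cutandrun (hg38, 1 IgG control per genotype) and scaled depth by the reads at promoters. Peak calls came from SEACR, summits from MACS2, and super-enhancers from ROSE run on the H3K27ac data of WT with peaks near a TSS left out. The deposited signal is the ROSE signal per stitched region, in 1 column that combines both WT replicates, with no control column. Its scaling is not stated in the file header, and read counts per sample were not analysed here, so depth is unknown and no counting interval was computed. The labels' processing notes also name DiffBind 3.6.1 and DESeq2, whose output was not used here. The remaining deposited columns gave positions, the number and summed length of constituents, the rank and a flag for super-enhancers, and 0 columns of other samples were present.

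Positions were read as 1-based and compared with GENCODE version 44, using the canonical transcript for the TSS. A gene was counted when a region overlapped its body extended by 50 kb. Joining and counting procedures were tested on simulated tables. Sequences came from hg38 and RefSeq promoters, and 9 of 10 members matched a promoter entry. The genes named were all members with every region within 50 kb, the genes their regions overlap, and pathway genes whose region was in the top 10% or overlapped the body; CXCR4's further row of regions, HSD3B7, S1PR3, S1PR4, S1PR5, KLF2 and the neighbours CCR9 and XCR1 were named after their values were seen. The details of 1 pathway list and some named items are not reported here. The members and lists were chosen with earlier results of these data known. The planned limma comparison of C, K and CK with WT was not run, since it needs values of single samples. Software was Python 3.11.15, with pandas 2.3.3, numpy 2.4.6 and matplotlib 3.10.9.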

Additional observations from a re-analysis of the deposited data

How the results depend on the processing

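The count of 7 members with a region was recomputed under 11 other settings and stayed within 1.5 times in 9 of them, between 5 and 8. The windows of 100, 250 and 500 kb contain the 50 kb window, so there the count could not fall. With 10 members it also could not rise beyond 1.5 times, so these settings say nothing on stability. The share of all genes there was 39.7%, 56.0% and 69.3%. The count of members fell to 3 with the gene body alone and to 3 with 10 kb. Of the other pathway genes, 46 had a region with 100 kb and 22 with the upper 50% of regions by signal, in place of 37. The place of a member among the 7 by summed signal moved in 11 of 14 recomputed values and by highest region in 8 of 14, so the order of the members rests on the measure. No paired analysis was possible because the table holds 1 pooled WT column, and for the same reason the replicate block, the other pseudocount and leaving out each replicate were not run for C, K and CK against WT. The table ends at the cutoff, which limits what can be said of CCR7, S1PR1 and GNAI2.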

Other observations

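Because the stitching distance decides where a region ends, the deposited regions were joined again across wider gaps, with their signals added; this was chosen after seeing the data. It used only regions above the cutoff, so peaks in the gaps were not counted. At 20 kb the table went from 2615 to 2237 regions, and the row upstream of CXCR4 became 1 region of 275 kb (chr2:136132537-136407961) with 55 constituents and a signal of 151776, which is 3.01 times that of its first part. It ranked 10 in the joined table, in place of 225. At 15 kb only the first pair joined, with a signal of 89408 and rank 57, and at 25 kb the joined region ranked 11 of 2157. The regions on either side of CXCR5 became 1 region of 136 kb across the gene at 20 kb (signal 113685, rank 37), and rank 102 at CCR6 joined rank 976 (90806, rank 77). The highest regions of S1PR2, GPR183, GNA13 and RGS1 gained no neighbour up to 25 kb.

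Repeated sequence can limit how reads are placed. Over the outermost 401 bp at the 20 ends of the member regions, the share of 31-base words with a further exact copy in the genome had a median of 1.48%. It was over 50% in 2 of them, at the end of rank 343 near GPR183 (55.5%) and at the start of rank 1447 near S1PR2 (55.8%), beside 6.88% of all 5230 region ends.

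The promoter of GNA13 at its canonical start was among the richest in GC of all 35116 promoters, at 81.3% over 300 bases, above 98.4% of them. That of GPR183 was at 36.7%, above 6.10%. The regions near these 2 genes had like GC content, at 43.6% for rank 854 and at 43.1% and 43.6% for ranks 343 and 2461.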
